A study of Drosophila melanogaster with 2 samples.

Results

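MicroRNA genes of Drosophila melanogaster were examined for binding by tramtrack (ttk), a repressor of transcription with a BTB domain and zinc fingers. The members were all genes of the Ensembl annotation whose symbol begins with mir-, which includes let-7 (annotated as mir-let7) and bereft (mir-bft), and there were 262 of them, 260 on the chromosome arms and 2 in ribosomal DNA sequence. A member was counted as bound when the summit of a tramtrack peak, the position of its highest point, lay within 2 kb of the hairpin gene. Of the 262 genes, 30 were bound (11.5%), against 25.5% of the 18017 other genes on the arms, which are mostly far longer than a hairpin. Neighbouring members up to 10 kb apart were joined into 1 cluster, which gave 200 clusters, 25 of them bound (12.5%). The data are chromatin immunoprecipitation sequencing (ChIP-seq) from whole embryos aged 0 to 24 h of the strain ttk-GFP. The labels describe these flies as transgenic, expressing tramtrack as a fusion to eGFP. Anti-GFP antibody was used for the precipitation, per the description in the labels, although their antibody field names ttk, and sonication gave a size range of 200 to 800 bp. There was 1 group with 2 libraries, labelled biological replicates 1 and 2, and neither a second condition nor a control library was analysed here. The files hold peaks and no read counts, so the depth is unknown, and binding cannot be assigned to a tissue in whole embryos.

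MicroRNAs are cut from hairpins in longer transcripts, by Drosha in the nucleus and by Dicer-1 in the cytoplasm, and short introns called mirtrons bypass Drosha. The mature strand guides an Argonaute protein to mRNAs, mainly by pairing of its seed, the bases near its 5′ end, and the bound mRNAs are translated less and decay faster. In the fly embryo microRNAs are known for clearing maternal mRNAs, restraining cell death, setting the boundaries of Hox proteins and limiting which cells become neurons, and tramtrack itself is known for holding back neuronal fates.

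Mature sequences of selected bound hairpins, and of some unbound ones that share a seed with them, are shown with the seed (bases 2 to 8) in capitals. Not every bound hairpin with a shared seed is shown. They come from RefSeq features on the Release 6 assembly, which gave 481 mature sequences for 260 of the 262 members, with 426 distinct seeds. The strongest bound member, mir-279, has the same seed as its neighbour mir-996, and mir-92a has the same seed as its neighbour mir-92b. The K-box family, named after a short target motif in mRNAs, is shown by its 3 bound hairpins on arm 3R and by mir-2b-1, mir-2a-1 and mir-11, which were not bound within 2 kb.
mir-279 3′ arm: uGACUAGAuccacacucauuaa
mir-996 3′ arm: uGACUAGAuuucaugcucgucu
mir-92a 3′ arm: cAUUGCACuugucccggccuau
mir-92b 3′ arm: aAUUGCACuagucccggccugc
mir-2c 3′ arm: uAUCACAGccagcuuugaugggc
mir-13a 3′ arm: uAUCACAGccauuuugaugagu
mir-13b-1 3′ arm: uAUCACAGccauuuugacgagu
mir-2b-1 3′ arm: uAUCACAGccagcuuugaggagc
mir-2a-1 3′ arm: uAUCACAGccagcuuugaugagc
mir-11 3′ arm: cAUCACAGucugaguucuugc
mir-ban 3′ arm: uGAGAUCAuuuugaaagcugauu
mir-277 3′ arm: uAAAUGCAcuaucugguacgaca
mir-iab-4 5′ arm: aCGUAUACugaauguauccuga
mir-iab-8 5′ arm: uUACGUAUacugaagguauaccg
The sequences of mir-iab-4 and mir-iab-8 come from opposite strands of the same hairpin locus. Of the 426 seeds, 33 are shared by 2 or more hairpins, and 10 of these 33 had a bound hairpin. A seed with more hairpins has more chances to include a bound one, and the share for seeds of a single hairpin was not counted. Among the 8 seeds shared by 3 or more, AUCACAG (the K-box family) had 4 of 14 hairpins bound, AUUGCAC had 1 of 6 (mir-92a), GACUAGA had 1 of 3 (mir-279), and the other 5 had none. The 14 K-box hairpins lie in 7 clusters, of which 2 were bound, so the family's count rests on few loci.

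The sequence under the strongest summits is shown as 101 bp on the plus strand, centred on the summit, for the members that lead the results. Capitals mark CACACA, the complement of a seed of the member itself (7 bases), or either on the other strand; a window without capitals held none of these and none of the other 6 motifs searched, namely the tramtrack core AGGAC and its longer form GGTCCT, the GAGA factor core GAGAG, the DREF site TATCGATA, the Zelda site CAGGTA and the E-box CACGTG.
mir-279, 3R:29214389-29214489: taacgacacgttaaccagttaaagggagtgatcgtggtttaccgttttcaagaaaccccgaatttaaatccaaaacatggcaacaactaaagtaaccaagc
mir-9377, X:12666567-12666667: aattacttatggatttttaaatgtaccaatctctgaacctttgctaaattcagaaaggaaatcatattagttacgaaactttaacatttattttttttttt
mir-375, 2L:856797-856897: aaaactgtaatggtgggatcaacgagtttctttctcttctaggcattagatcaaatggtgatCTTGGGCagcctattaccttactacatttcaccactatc
mir-92a, 3R:25646946-25647046: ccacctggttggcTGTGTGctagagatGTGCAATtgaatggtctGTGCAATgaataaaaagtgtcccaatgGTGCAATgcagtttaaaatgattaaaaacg
mir-282, 3L:3250255-3250355: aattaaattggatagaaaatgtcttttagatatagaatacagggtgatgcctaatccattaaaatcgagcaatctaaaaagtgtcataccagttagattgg
mir-ban, 3L:640685-640785: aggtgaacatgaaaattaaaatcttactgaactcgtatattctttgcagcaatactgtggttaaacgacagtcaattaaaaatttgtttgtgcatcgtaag
The window near mir-92a holds 3 copies of GTGCAAT, the complement of the seed AUUGCAC that mir-92a carries, all on the strand of the hairpin. GTGCAAT, counted on both strands, was present within 100 bp of 144 of the 3815 summits on the arms (3.77%), and the summit near mir-92a was the only member of that list with 3 or more copies. The window near mir-375 holds CTTGGGC, the seed of the 5′ arm of mir-375 itself on the strand of the hairpin, with its complement on the other strand, and this sequence was present at 1.18% of all summits. Over all bound members, 3 of the 71 combinations of a summit with a seed of its own member had such a match on either strand (4.23%), the other at mir-9377, and on average a seed of these combinations had a match at 2.45% of all summits. This count was chosen after the window near mir-92a had been seen, and a match in DNA says nothing of pairing.

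The 30 bound genes were reached by 31 distinct summits, 0.813% of the 3815 in the list that the authors call conservative. No summit lay inside a hairpin, the nearest was 110 bp away at mir-2491, and the median distance from a bound gene to its strongest summit was 1251 bp. The strongest summit lay upstream, on the strand of the gene, for 21 of the 30 bound genes (70%) and for 18 of the 25 bound clusters (72%). The count by cluster takes the locus of mir-iab-4 and mir-iab-8 as upstream, although its summit is downstream of mir-iab-4. By position, 12 of the 31 summits were in introns, 10 at promoters (within 500 bp of a transcription start site), 5 in exons of non-coding transcripts, 3 between genes and 1 in a 3′ UTR. The division by place over all 3815 summits was not counted, and neither was the upstream share for other genes. The share of bound genes differed among the classes of the annotation, from 28.2% of 13968 protein-coding genes and 29% of 269 snoRNA genes to 17.2% of 3029 other non-coding RNA genes and 12.8% of 290 tRNA genes. The tRNA and snoRNA genes are short like the hairpins, with median lengths of 73, 134 and 92 bp, and their shares differed from each other, since that of tRNA genes was close to that of the microRNA genes and that of snoRNA genes was higher. A longer gene on the same strand holds 91.8% of the snoRNA genes, 20.3% of the tRNA genes and 70.2% of the microRNA genes. Of all assembled positions on the arms, 9.43% lay near enough to a summit for a hairpin of median length (92 bp) centred there to be counted, and the share of bound microRNA genes was 11.5%. With the peaks of replicate 2 alone, 15 members were bound (5.73%, beside 22.2% of other genes). With those of replicate 1 alone, 22 were bound (8.4%, beside 22.4%). The share was larger in clusters of 2 or 3 genes (9 of 21 clusters) than among single genes (16 of 173), whereas 0 of the 6 clusters with 4 or more genes, which hold 42 genes, had a summit within 2 kb. A larger cluster covers more sequence, and these differences were not tested.

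**Figure D1:**
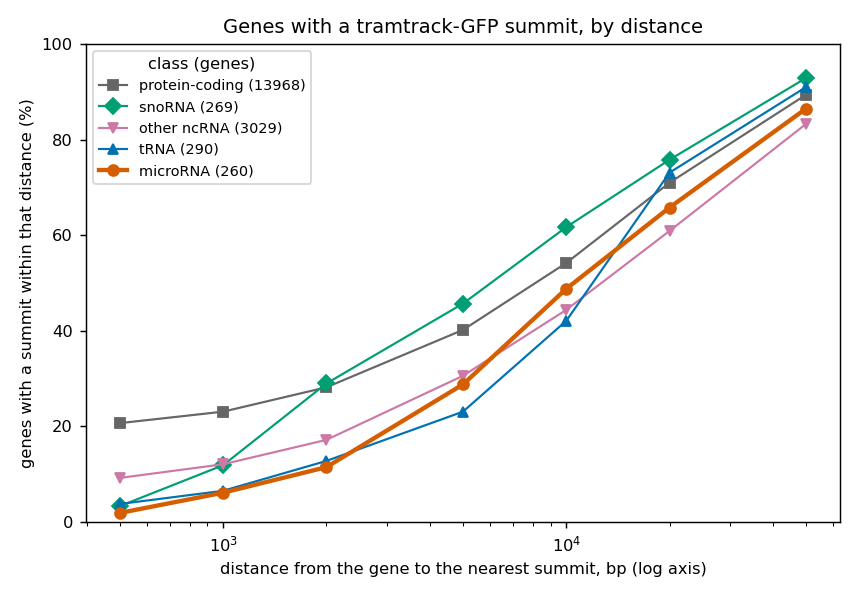
Percentage of genes (vertical axis) with a summit of the conservative list within a given distance in bp (horizontal log axis), for 5 classes of gene on the arms, with the number of genes in brackets. The microRNA line lies close to the tRNA line up to 2 kb (11.5% and 12.8%) and below the protein-coding and snoRNA lines (28.2% and 29%).

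The share of bound members was highest for hairpins inside non-coding host transcripts. A host is a longer gene on the same strand whose span holds the whole hairpin. Of the 48 hairpins whose hosts are all non-coding, 12 were bound (25%), against 13 of 136 with a protein-coding host (9.56%), 4 of 51 between genes (7.84%) and 1 of 27 that lie inside a gene on the other strand (3.7%). The 136 include 5 that also have a non-coding host, mir-281-1, mir-281-2, mir-iab-8, mir-92b and mir-987, and with these added 15 of 53 hairpins in any non-coding host were bound (28.3%). Counted by cluster, the shares were 10 of 34 for hosts that are all non-coding (11 of 37 with any) and 12 of 124 for protein-coding hosts (9.68%). Between genes the share by cluster was 4 of 32 (12.5%), above that of protein-coding hosts, and inside a gene on the other strand it was 1 of 19 (5.26%). A start site within 2 kb made little difference to the count, with 17 of 135 members that have such a site bound (12.6%) and 13 of 125 without (10.4%). By arm, 5 of 56 members were bound on 2L, 7 of 55 on 2R, 5 of 31 on 3L, 9 of 58 on 3R, 4 of 58 on X and 0 of 2 on chromosome 4. Over all members on the arms, the median distance to the nearest summit was 10518 bp, with quartiles at 4312 and 31244 bp.

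The strongest summit belonged to mir-279, which is known for keeping cells of the maxillary palp from becoming carbon dioxide-sensing neurons. The peak (3R:29214311-29214564) had a signal of 803, the authors' value for a peak, and ranked 58 of 3815. In replicate 1 it reached 388 and in replicate 2 407, values from separate lists whose scaling is not given. The summit lay 1146 bp upstream of the hairpin (FBgn0262448) and 123 bp upstream of the start of lncRNA:CR31044, the non-coding host transcript that also carries mir-996, a hairpin with the same seed and an overlapping role in the same neurons. The distance from this summit to mir-996 was 2745 bp, so mir-996 was not counted as bound within 2 kb, although its host promoter was.

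The summits near mir-92a lay at an internal start site of jigr1, its protein-coding host. Both mir-92a and mir-92b are known to act on the mRNA of jigr1 in larval neuroblasts. The stronger peak (3R:25646824-25647167) had a signal of 257, or 144 for replicate 1 and 104 for replicate 2, and its summit was 396 bp downstream of the mir-92a hairpin (FBgn0262411) and 250 bp upstream of the start site. A peak that overlaps it, with a summit 596 bp downstream of the hairpin, had a signal of only 23.9, the lowest of the 31. No peak of replicate 1 matched that weaker peak, and the same replicate 2 peak matched both, so it adds little to the first. These summits lie downstream of mir-92a and upstream of mir-92b, and no annotated transcript from a bound start site of jigr1 holds either hairpin. The nearest summit to mir-92b was 4202 bp away.

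Summits with signals of 217 to 452 lay near 4 further single genes, and of these summits only that near mir-282 was within 500 bp of a start site. Near mir-9377, in the gene of the mRNA decay factor Tis11, 2 intronic summits lay 1349 and 338 bp downstream, with signals of 452 (269 for replicate 1, 178 for replicate 2) and 281 (137 and 147). At mir-4981, between genes on 2R, a summit 839 bp upstream had a signal of 395 and lay 655 bp before the start site of CG14762. Its replicate signals of 140 and 259 were the most uneven towards replicate 2 among the 30 summits with both values (log2 ratio -0.89). Around mir-375, a microRNA known in vertebrates from pancreatic islets, 1 summit lay 695 bp upstream (260; 116 for replicate 1, 147 for replicate 2) and another 716 bp downstream (123; 57.8 and 77.7). The upstream summit is 556 bp before the start of lncRNA:CR45345, the host of mir-375, just beyond the width taken for a promoter. The summit near mir-282 (217; 101 for replicate 1, 98.6 for replicate 2) lay 289 bp before a start site of its host lncRNA:CR43626 and 717 bp upstream of the hairpin.

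The growth-promoting microRNA bantam (mir-ban, FBgn0262451), which is known to restrain the cell death gene hid, had a summit on either side. The stronger peak (3L:640563-640906) lay 1473 bp upstream with a signal of 175 (94.6 for replicate 1, 70.7 for replicate 2), in an exon of the host lncRNA:CR43334 and 1021 bp beyond a start site. The weaker lay 440 bp downstream with a signal of 86.1 (54.2 and 28.9), the most uneven of the 30 pairs towards replicate 1 (log2 ratio 0.91). Neither counted as a promoter summit, and the promoters of lncRNA:CR43334 had none.

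**Figure D2:**
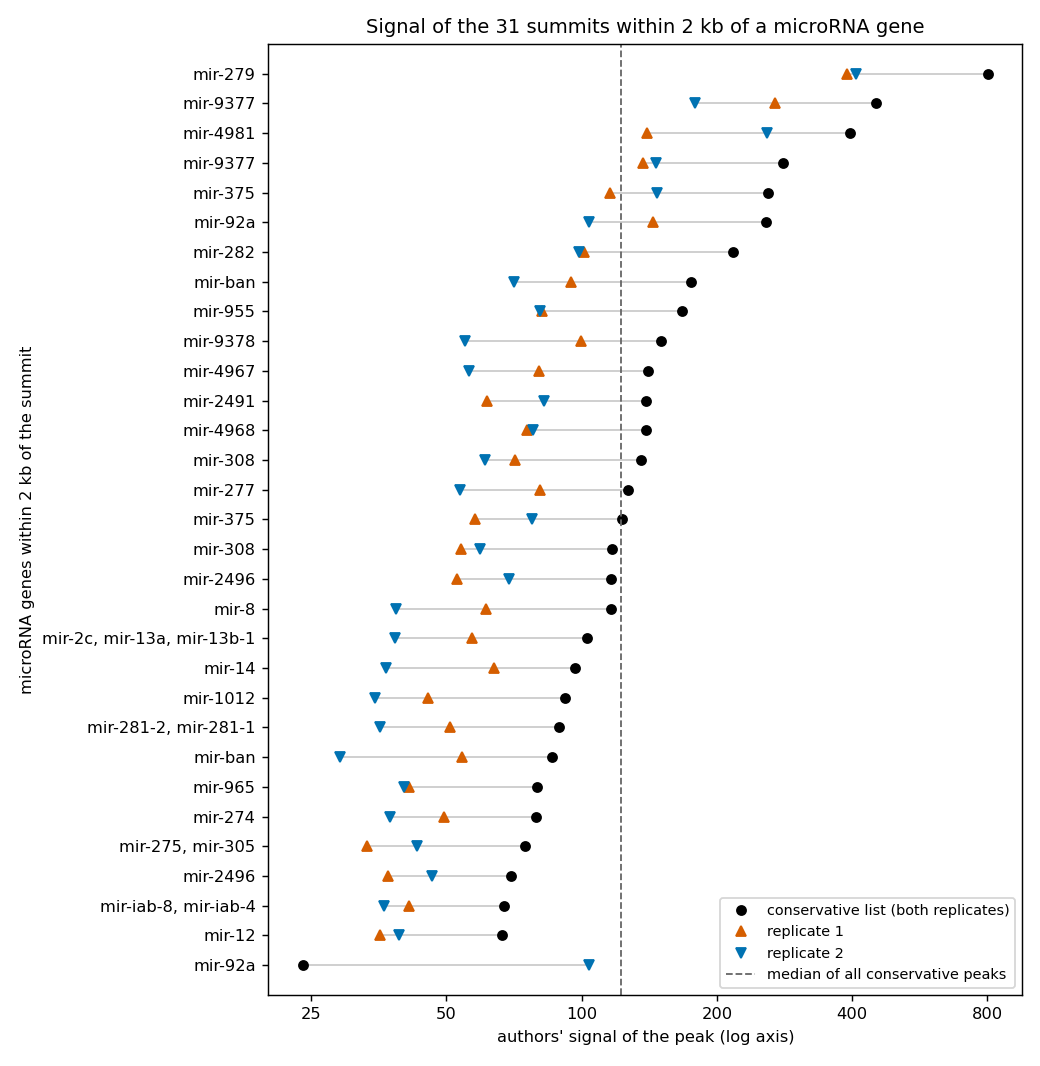
Authors' signal (horizontal log axis) of each of the 31 summits within 2 kb of a microRNA gene, labelled with the genes it lies near, in the conservative list made from both replicates (black) and of the matching peak in each replicate's own ranked list (triangles). The mir-279 summit is highest at 803, the second mir-92a summit is lowest at 23.9 and has no replicate 1 peak, and the dashed line is the median of all conservative peaks (122).

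At mir-8, mir-14 and mir-308 a summit lay at the promoter of the host transcript that holds the hairpin. The summit near mir-8, the fly member of the vertebrate miR-200 family, lay 167 bp before the start of its host lncRNA:CR43650 and 910 bp upstream of the hairpin, with a signal of 116 (61.3 for replicate 1, 38.6 for replicate 2). At mir-14, known for restraining cell death and for a role in fat metabolism, the summit was 59 bp past the start of lncRNA:CR43651 and 859 bp upstream, with a signal of 96.5 (63.8 and 36.7). For both, the value of replicate 1 was the higher, and the peak was in the thresholded list of replicate 1 alone. The hairpin mir-308 lies in the ribosomal protein gene RpS23, whose promoter summit, 12 bp before the start site and 775 bp upstream of the hairpin, had a signal of 135 (71 for replicate 1, 61 for replicate 2). A second summit 821 bp downstream of mir-308 had a signal of 117 (53.8 and 59.3). The pair mir-281-1 and mir-281-2 shared a summit at the promoter of SmD3, a spliceosome gene, with a signal of 89 (51 and 35.6), which is also 157 bp before a start site of their host Oda, the gene of ornithine decarboxylase antizyme. No transcript from a bound start site of Oda holds these hairpins.

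K-box microRNAs, whose target motif was first described in Notch pathway mRNAs, had 4 of 13 listed members bound (30.8%), at 2 loci, beside 11.5% of all microRNA genes. This list was also chosen with earlier results of these data known, and the difference was not tested. The list leaves out mir-5, the fourteenth hairpin with the seed AUCACAG, which was unbound (8727 bp). One summit reached mir-2c, mir-13a and mir-13b-1 at 1299, 1528 and 1669 bp upstream, with a signal of 103 (56.9 for replicate 1, 38.4 for replicate 2), and it was past the threshold of neither replicate's own list. The other bound member was mir-308. Nearest summits to the rest lay at 5788 bp for mir-2a-1, 5496 bp for mir-2b-2, 5409 bp for mir-11, 10046 bp for mir-13b-2 and 8869 bp for mir-6-1, and at 6199 bp for mir-2a-2, 19168 bp for mir-2b-1, 9011 bp for mir-6-2 and 9158 bp for mir-6-3. The spi gene, for the EGF receptor ligand spitz, hosts mir-2a-1, mir-2a-2 and mir-2b-2, and its promoter had a summit with a signal of 236 (113 and 121).

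In the bithorax complex, a summit 852 bp from the shared hairpin locus of mir-iab-4 and mir-iab-8, which are known to act on the Hox gene Ubx, had a signal of 67.1 (41.3 for replicate 1, 36.2 for replicate 2). It is upstream for mir-iab-8 and downstream for mir-iab-4, because the hairpins lie on opposite strands, and it stood in neither replicate's thresholded list. Of the 4 members listed for the Hox complexes, mir-10 and mir-993 were unbound, with the nearest summits at 9104 and 4601 bp.

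In the cluster of mir-317, mir-34 and mir-277, a summit lay 1869 bp upstream of mir-277, known from branched-chain amino acid breakdown, with a signal of 127 (80.7 for replicate 1, 53.6 for replicate 2). The distance from it to mir-34, known from ageing, was 2783 bp, and both hairpins lie in the host lncRNA:CR43459, in an exon of which the summit falls. The summit shared by mir-275 and mir-305, the second of which is known from the intestinal stem cells of the adult, was 1358 and 1535 bp upstream, with a signal of 74.9 (33.2 and 42.9). For mir-965, known from the growth of the adult abdomen and hosted by the chromatin remodelling gene kis, an intronic summit 841 bp upstream had a signal of 79.6 (41.2 and 40.3).

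The other bound members were less studied hairpins, with signals from 66.5 to 167. Promoter summits of neighbouring genes lay near mir-955 (167, at CG14968) and mir-2496 (69.7, at PIG-K, with an intronic summit of 116 on the other side). Intronic summits lay near mir-9378 (150), mir-4967 (140), mir-2491 (139), mir-4968 (139), mir-1012 (91.6) and mir-274 (79.1). The mirtron mir-1012 and mir-12 were among the members just inside the 2 kb limit, at 1902 and 1969 bp, and mir-12, with its summit in a 3′ UTR, was the bound cluster of lowest signal (66.5; 35.6 for replicate 1, 39.2 for replicate 2). The members just outside were the mirtron mir-1013 at 2002 bp, from a summit with a signal of 129, and mir-2495 at 2314 bp (119).

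**Figure D3:**
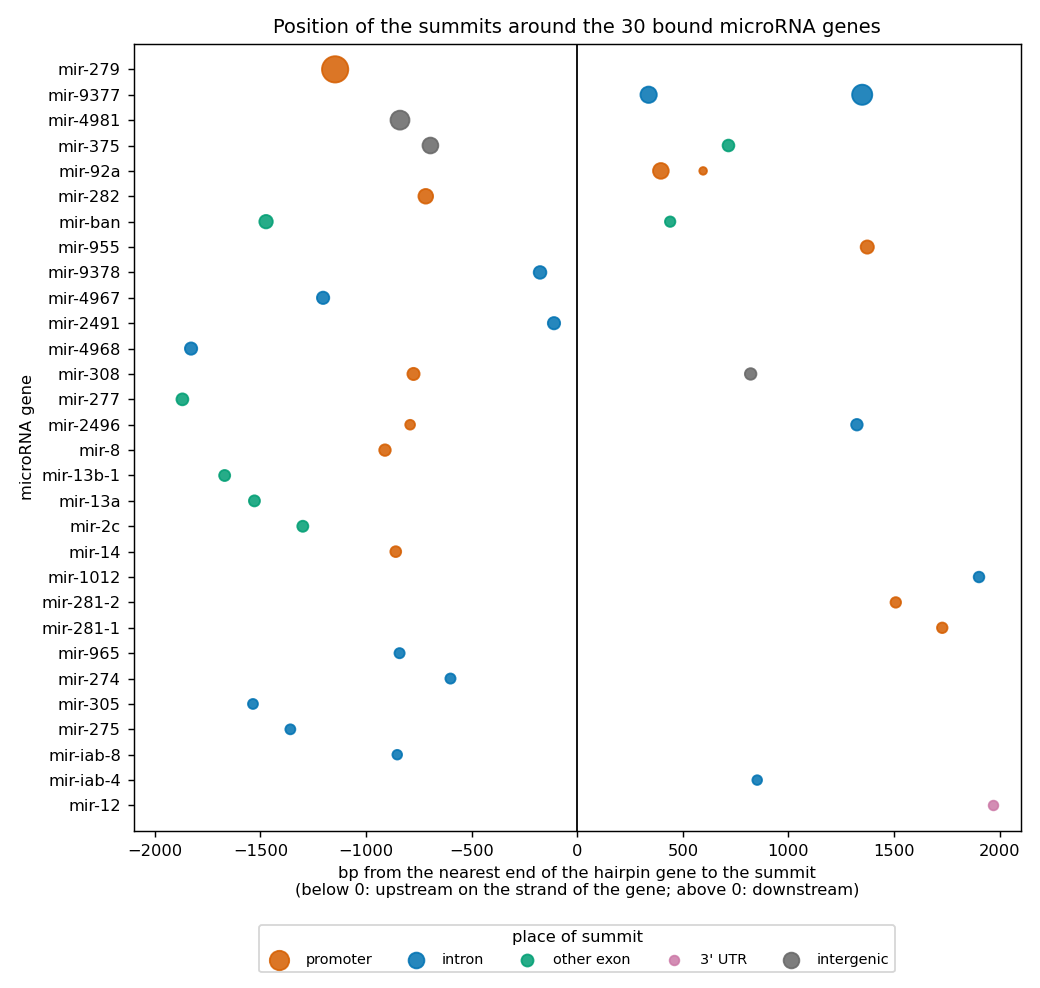
Position of each summit (horizontal axis, bp from the nearest end of the hairpin, negative upstream on the strand of the gene) for the 30 bound microRNA genes (rows, ordered by their highest signal); the colour gives the place of the summit in the annotation and a larger point a higher signal. No point lies on the hairpin at 0, the nearest is 110 bp away at mir-2491, and the strongest summit is on the upstream side for 21 of the 30.

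Of 40 well-studied microRNA genes listed by name, 10 were bound (25%), beside 11.5% of all microRNA genes, and the other 30 had no summit within 2 kb. The names were chosen with earlier results of these data known, and the difference was not tested. Among the 10, mir-iab-4 and mir-iab-8 were reached by the same summit. The muscle microRNA mir-1 had its nearest summit 7371 bp away, mir-133 28786 bp, and mir-124, which is abundant in the central nervous system, 52064 bp. None of the 3 members of the let-7 complex, known for timing metamorphosis, was bound, with distances of 5470 bp for mir-let7, 6048 bp for mir-100 and 5157 bp for mir-125. The mir-309 cluster, which is known for clearing maternal mRNAs at the onset of zygotic transcription, had 0 of 8 members bound, with mir-309 itself 8179 bp from a summit, and the mir-310 cluster had 0 of 7. Among microRNAs of the sense organs and eye, mir-9a (4326 bp), mir-7 (17372 bp) and mir-263b (74348 bp) were unbound, as was mir-bft, the bereft microRNA of the interommatidial bristles (3336 bp). The distances were 10972 bp for mir-9b, 11791 bp for mir-9c, 7979 bp for mir-184, 17864 bp for mir-278, 3387 bp for mir-317, 12399 bp for mir-276a, 9188 bp for mir-315, 36240 bp for mir-33, 24526 bp for mir-190 and 39686 bp for mir-310. The full ranked list, which holds 126870 peaks on the arms and is not thresholded, had a peak within 2 kb of 164 of the 230 unbound members, with a median signal of 37.1 and a highest of 181 at mir-4949. Such peaks are dense, lying within 2 kb of 74.6% of the 260 microRNA genes and of 81% of the 290 tRNA genes. Of all assembled positions, 74.6% are as near to them, so a peak of this list does not set unbound members apart. Not all of these peaks are weak, since those at mir-4949 (181) and mir-2493 (151) had a score of 1000. The conservative list, with scores of at least 830, leaves them out.

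Host genes of microRNAs had promoter summits more often than genes that host none. The 184 members with a host on their strand lie in 167 hosts, and 34 of the hosts had a summit within 500 bp of a start site (20.4%). Among protein-coding hosts 28 of 128 did (21.9%), against 14.1% of the 13840 protein-coding genes that host no microRNA and 14.2% of all protein-coding genes. Among non-coding hosts 6 of 37 did (16.2%), against 4.24% of 2992 other non-coding RNA genes. Protein-coding hosts were also longer (median 14094 bp against 2145 bp) and had more start sites (median 2 against 1), and non-coding hosts were longer too (6436 bp against 603 bp, with a median of 1 start site in both). The part of length and start sites in these shares was not tested, and neither was that of expression or of how open the promoters are, which was not measured.

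The strongest host promoters were those of lncRNA:CR31044, already described, and of Btk, which encodes a tyrosine kinase and hosts mir-2b-1. The Btk peak (2L:8277735-8277988) had a signal of 770 (449 for replicate 1, 322 for replicate 2), at an internal start site 19168 bp from the hairpin. Next came the transporter gene MRP with mir-9382 (398; 203 and 178), for, a cGMP-dependent protein kinase gene with mir-4972 (362; 251 and 127), and CG5953 with mir-4943 (343; 161 and 182). The phospholipase gene PAPLA1 (293), CG12241 (269), Mob2 (265), jigr1 (257), the LIM-homeodomain gene tup (237), spi (236), CG45092 and chk with a shared summit (235), lncRNA:CR43626 (217) and CG6231 (200) completed the 15 of highest signal. Further down, the host of mir-184, lncRNA:CR44206, had a promoter summit with a signal of 137 (76.9 for replicate 1, 53.7 for replicate 2), and that of mir-bft, lncRNA:CR43314, had a weaker promoter summit of 83.3 (39.9 and 38.6). Both of these microRNAs were unbound at the hairpin.

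In 30 of the 34 hosts, at least 1 hairpin lay within an annotated transcript that begins at a bound start site, which covers 31 members. In the other 4, namely Btk, for, jigr1 and Oda, bound start sites gave rise to no annotated transcript that holds the hairpin. The strongest promoter summit lay upstream of the start site in 27 of the 34 hosts, at a median of 6377 bp from the nearest hairpin, and within 2 kb of a hairpin in 7. The upstream share over promoter summits of other genes was not counted, so it is not known whether hosts differ in this. Of the 37 members with a bound host promoter, 9 were also bound within 2 kb and 28 were not. For all of these 9 except mir-4968, a promoter summit of the host was itself the summit within 2 kb, so the same summit was counted in both ways. Conversely, 16 of the 25 bound members that have a host had no summit at its promoters. Members bound in either way numbered 58 of 262 (22.1%), in 49 of the 200 clusters. Over all members, 30 of 262 were bound within 2 kb (11.5%), and 37 of the 184 members with a host had a bound host promoter. The overlap between both kinds of binding was not tested.

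**Figure D4:**
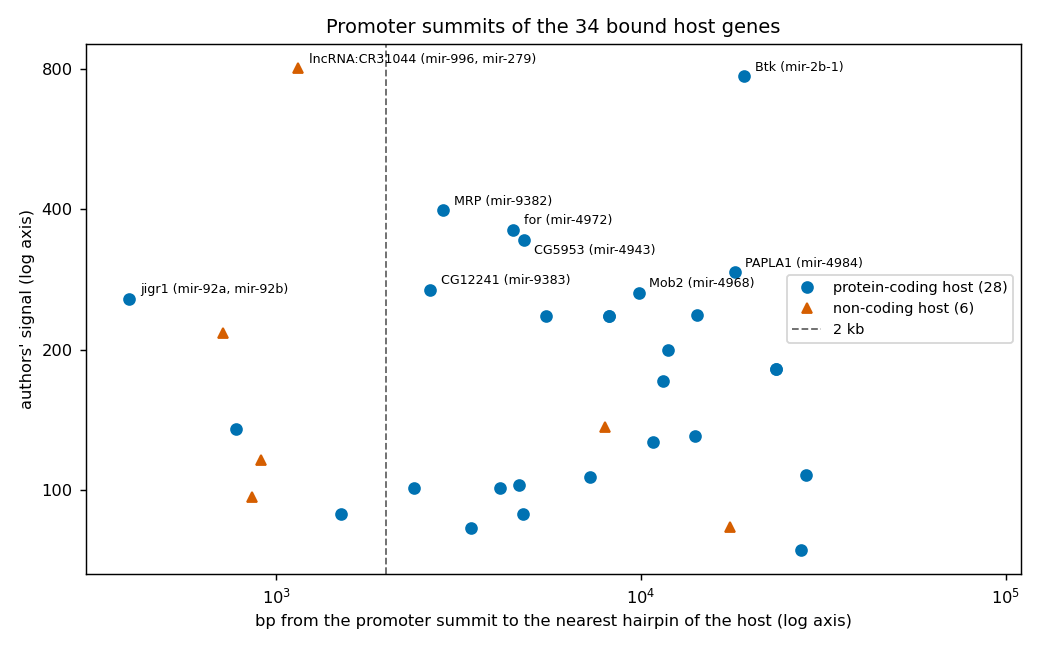
Signal of the strongest promoter summit of each of the 34 bound host genes (vertical log axis) against its distance in bp from the nearest hairpin of that host (horizontal log axis); the 9 hosts of highest signal are labelled with their microRNAs. The Btk summit has a signal of 770 at 19168 bp, 7 hosts lie left of the dashed 2 kb line, and the median distance is 6377 bp.

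Summits near microRNA genes were typical of the whole list in signal. Their signals ran from 23.9 to 803 with a median of 123, beside a median of 122 over all 3815 peaks (range 2.10 to 2281), and 16 of the 31 were at or above the median of the list. A peak in both replicates' ranked lists matched 30 of the 31, with a median log2 ratio of replicate 1 to replicate 2 of 0.11, beside 0.15 over the 3579 conservative peaks with both values. In the replicates' own thresholded lists, 18 of the 31 stood in both, 3 in that of replicate 1 alone, 2 in that of replicate 2 alone and 8 in neither. Of those 8, 7 are the only summit of their cluster, namely those of mir-2c, mir-1012, mir-965, mir-274, mir-275, mir-iab-8 and mir-12, and these rest on the list made from both replicates. How all 3815 peaks divide among the replicates' thresholded lists was not counted. With no control library analysed here, binding by the tagged protein and signal that any open chromatin gives in ChIP-seq cannot be told apart.

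Matches to 7 motifs near these summits were counted beside those at all summits. Each motif was searched on both strands within 100 bp of the summit, and with 31 summits a single match is 3.23%. AGGAC, the core of a site reported for tramtrack, was found at 12.9% of the summits near microRNA genes, namely those of mir-9377, mir-1012, mir-965 and mir-274, beside 9.36% of all 3815. The longer form GGTCCT, whose reverse complement holds AGGAC, was found at 0 of them, beside 1.42%. GAGAG, the core bound by GAGA factor, was found at 22.6% beside 24%, and the repeat CACACA at 25.8% beside 15.3%. Within 50 bp, CACACA was found at 16.1% beside 6.95%, and GAGAG at 3.23% beside 9.88%. TATCGATA, the site of the promoter factor DREF, was at 0% beside 2.39%, CAGGTA, bound by the early activator Zelda, at 3.23% beside 3.8%, and the E-box CACGTG, found near mir-8, at 3.23% beside 1.97%. The GC content within 100 bp of the summits had a median of 36.8%, beside 35.3% for all summits. No motif was tested.

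Genes of the microRNA pathway, listed by their roles, had promoter summits in 9 of 32 cases (28.1%), beside 14.2% of all protein-coding genes, and a summit inside or up to 2 kb from the gene in 16 (50%), beside 28.2%. The list was made with earlier results of these data known. The length, start sites and expression of the listed genes were not compared with those of other genes, and these differences in share were not tested. Of the nuclear processing genes, pasha, the partner of Drosha, had a summit of 961 outside its promoter (452 for replicate 1, 509 for replicate 2), while drosha had none. The exportin gene Ranbp21 (108) and the cap-binding gene Cbp20 (123) had promoter summits, while Cbp80 and Ars2 had none. Of the Dicer and loading genes, loqs, the partner of Dicer-1, had a summit of 399 outside its promoter (173 and 234), and r2d2, the partner of Dicer-2, had a promoter summit of 180. Hsp83 (290) and Hsc70-4 (256), chaperones that help load Argonaute proteins, were bound at the promoter and Stip1 (232) elsewhere, while Dcr-1, Dcr-2, AGO1 and AGO2 had none. Of the genes that act on the target or the mature strand, PAN3 (569; 312 for replicate 1, 263 for replicate 2) and PAN2 (62.5), of a deadenylase, tral (231), a translational repressor, and Nbr (70.4), an exonuclease that trims microRNAs, had promoter summits. Summits outside the promoters of the gene itself lay at Not1 (217) and twin (171), of the CCR4-NOT deadenylase, the poly(A)-binding protein gene pAbp (170) and Tailor (67.7), a uridylyltransferase gene. Whether these, or those at pasha, loqs and Stip1, lie at the promoter of a neighbouring gene was not examined. The GW182 gene gw, me31B, Pop2, Ge-1, Patr-1, DCP1, DCP2, Hen1 and Droj2 had no summit inside or up to 2 kb away.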

How the data were processed

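Peak lists in dm6 coordinates, the assembly named in the labels, were used as deposited; for the aligner and the peak caller, names were not given in the sources used here. Per the file columns, the authors gave each peak a score derived from the irreproducible discovery rate (IDR), which compares peak ranks in a pair of lists, a signal whose normalization is not given, and a summit offset. Every peak of the conservative list, the main list, had a score of at least 830. Signals rank peaks within a list; values of the replicates come from separate lists, so a difference between them may be one of scaling. The read depth of each library is unknown, so no interval was computed. The value of a replicate is that of the peak in its own ranked list whose summit was closest, up to 150 bp away. Per-sample columns left unused numbered 0.

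Genes, hosts and start sites came from the Ensembl annotation, bases and mature microRNAs from RefSeq, both on the same assembly; hairpin and mature ends were not counted as start sites, and coordinates are 1-based. Counting steps were tested on simulated intervals. No tests were made, since there was 1 group. Members, lists and motifs were chosen with earlier results of these data known. The rule for named genes took the 25 bound clusters of highest signal, 40 microRNA genes by name, 5 lists, the 15 hosts of highest promoter signal, bound pathway genes and members on either side of the 2 kb limit; the unbound pathway genes, and hosts below those 15, were named after their values were seen. Symbols let-7, bft, Hop, Dcp1 and Dcp2 were matched to current ones. Alternatives were other lists, replicates, distances, cluster gaps and windows. Python 3.11.15, numpy 2.4.6, pandas 2.3.3 and matplotlib 3.10.9 were used.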

Additional observations from a re-analysis of the deposited data

How the results depend on the processing

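The main counts were 30 bound microRNA genes, 25 bound clusters and 34 hosts with a promoter summit. The bound genes changed most with the distance allowed: 16 genes in 15 clusters at 1 kb, 75 genes in 61 clusters at 5 kb, and 0 of both with the summit inside the hairpin. At 5 kb the share was 28.6%, beside 37.6% of other genes, and at 1 kb 6.11% beside 20.3%. With the conservative peaks at or above its median signal, 14 genes (5.34%, beside 16% of other genes), 14 clusters and 22 hosts were counted. With promoters of 250 bp, 21 hosts had a summit. With the peaks of a single replicate the counts ranged from 15 to 22 genes, 15 to 21 clusters and 29 to 33 hosts. Bound genes made up 8.4%, beside 22.4% of other genes, without replicate 2, and 5.73%, beside 22.2%, without replicate 1. The lower value of each count came without replicate 1. Without it the summits of mir-8, mir-14, the mir-281 pair, mir-2c, mir-13a, mir-13b-1, mir-275, mir-305, mir-iab-4, mir-iab-8, mir-12, mir-274, mir-965 and mir-1012 were not in the list used. The other settings moved these counts by less than 1.5 times. The larger thresholded list gave 34 genes, adding mir-34, mir-314, mir-956, mir-995 and mir-1000 and losing mir-274, and 40 hosts. Chosen after seeing the data, restoring the 83 ranked peaks past the score that the conservative list leaves out added mir-4949 and mir-2493 (32 genes), and leaving out promoter summits gave 22 genes (8.4%), beside 9.24% of other genes. Cluster gaps of 5 and 20 kb gave 204 and 194 clusters. Among motif shares, those within 50 bp moved for AGGAC (3.23%, beside 4.95% of all summits), GAGAG (3.23%, beside 9.88%) and CACGTG (0%, beside 0.603%). Depth is unknown, and with 2 replicates and no control analysed here, an unbound member may lie below the threshold of the list. The members mir-4949 and mir-2493 have a peak past its lowest score that the list leaves out.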
